A study of Homo sapiens with 4 samples.

Results

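To follow how MIA PaCa-2 cells treated with NBT and trametinib expressed the machinery that builds fatty acids, 9 genes were examined by their symbols: SREBF1, ACLY, ACSS2, ACACA, FASN, SCD, ELOVL6, FADS1 and FADS2. They were listed as the genes of fatty acid synthesis and desaturation with their regulator SREBF1, and all 9 were found among the 16834 genes of the series. MIA PaCa-2 is an established human PDAC line. Besides the control cells, the series holds cells given 1 µM NBT (neobractatin, isolated from the plant Garcinia bracteata), cells given 5 µM trametinib, which blocks the kinase MEK, and cells given both (the combination), each for 12 h. All libraries carry the genotype entry WT, and whether the control received a solvent is not stated in the labels. RNA of each condition was sequenced as 1 library, so the variation between cultures was not measured and no difference has a replicate check. Comparisons against the control share its library. The cell line entries of the labels carry a different line number for each library, whereas every title names MIA PaCa-2.

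The libraries held between 18776212 and 19614763 estimated reads. Of the epithelial markers, EPCAM stood between 209.12 and 242.36 TPM and KRT8 between 1492.67 and 3799.23 TPM, whereas KRT7 did not exceed 5.74 TPM. Of 5 epithelial markers analysed, 3 fell beyond the limits given below in the combination against control, where 3.69% of all genes tested did. The median log2 ratio over the 5 was -1.27. With trametinib alone 1 of the 5 fell beyond the limits, beside 2.15% of all genes, and the median was -0.75. With NBT alone 0 did, beside 1.01% of all genes, and the median was -0.17. The part of these falls in the results was not tested. The acinar marker CPA1 had 1 read in the control library and 0 in the others. The leukocyte marker PTPRC had 8 to 17 reads, the endothelial markers PECAM1 and VWF had 3 to 26 reads, and the fibroblast marker COL1A1 had 27 to 98 reads. CD68, listed with the leukocyte markers, stood between 91.89 and 139.24 TPM. DUSP6, a phosphatase gene driven by MAPK signaling, had 329 reads in control cells, 521 after NBT, 14 after trametinib and 9 after both drugs. By the same limits 9 of 10 genes of MAPK output fell with trametinib, where 2.15% of all genes tested did. In the combination against control 9 of the 9 tested fell, beside 3.69% of all genes.

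Fatty acids are made in the cytosol from acetyl-CoA. ACLY releases acetyl-CoA from citrate, and ACSS2 makes it from acetate. ACACA carboxylates it to malonyl-CoA, the committed step, and FASN assembles palmitate from both. ELOVL6 lengthens palmitate to stearate, SCD places the first double bond in saturated chains, and FADS2 and FADS1 desaturate polyunsaturated chains. SREBP1, the product of SREBF1, is held in the endoplasmic reticulum by SCAP and INSIG proteins, is cut in the Golgi when sterols are low, and then switches on most of these genes. Tumor cells often make fatty acids themselves, and palmitate and its products supply membranes.

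The levels of the 9 genes spanned a wide range, as the plot of levels by library shows. In TPM, a level scaled to transcript length and to the library, FASN was the highest member in the control library at 138.87 TPM, followed by ACLY at 105.96 TPM and SCD at 61.45 TPM. FADS2 was the lowest at 3.54 TPM, a level that exceeded 39.6% of all genes. SCD varied most, with a highest level 10.3 times the lowest, and ACSS2 varied least, with a factor of 1.08. Together the 9 genes took 0.134% of the reads in control cells, 0.0731% after NBT, 0.153% after trametinib and 0.0617% after both drugs. The summed level of ACLY, ACACA, FASN and SCD was 332.24 TPM in control cells, 152.82 TPM after NBT, 403.0 TPM after trametinib and 129.06 TPM after both drugs. The libraries with NBT thus held less of this sum, and of all 9 genes together, than both libraries without it. Each gene of the sum had this order by itself, whereas ACSS2, ELOVL6, FADS1 and FADS2, left out of it, did not. These genes were grouped with earlier results of these data known, so the sum is a description and no separate support. In bulk RNA, fewer cells that carry a transcript and less of it per cell cannot be told apart.

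**Figure D1:**
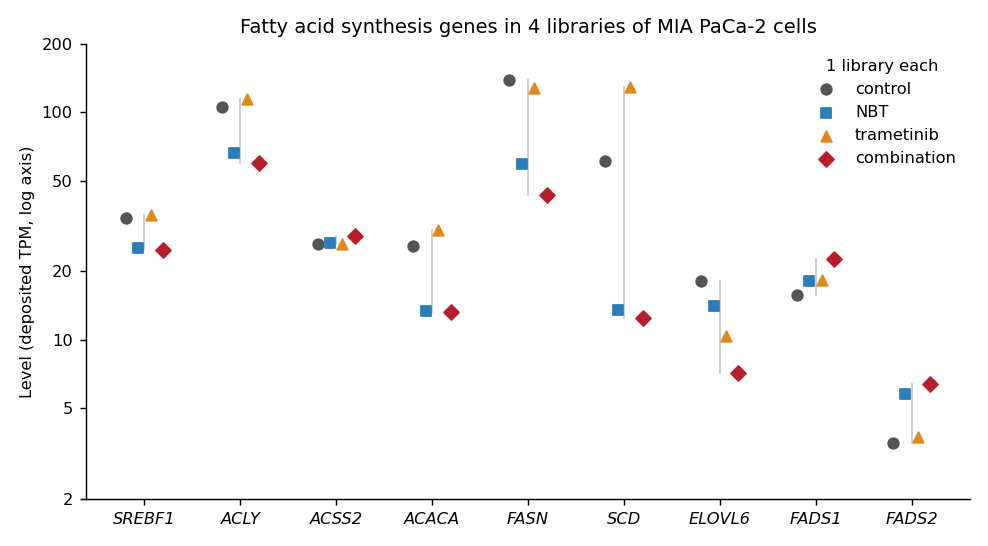
Deposited TPM values (vertical, log axis) of the 9 genes in the control, NBT, trametinib and combination libraries, 1 point per library and no error bars because each condition has 1 library. SCD runs from 12.54 to 129.66 TPM, while the 4 points of ACSS2 lie between 26.47 and 28.59 TPM.

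The question of what NBT did alone was addressed by the NBT library against the control library. SCD and FASN fell beyond the limits given below, and no member rose beyond them. FADS1 (log2 ratio 0.26) and FADS2 (0.77) rose by less, with intervals above 0. Ratios were computed from reads scaled to the library sums with 0.5 reads added, and are given as log2 values with 95% Clopper-Pearson intervals, which cover counting error only. A gene was called when the exact binomial test of both libraries' counts gave an adjusted value no higher than 0.05 and the log2 ratio was at least 1 in size, the limits of the study's methods. By this rule 2 of the 9 genes were called, both lower, where 2.61% of all 15888 genes tested were called in either direction with 1.6% called as higher and 1.01% as lower. The test compares 2 libraries and not the conditions, so no p-value is given.

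SCD, the stearoyl-CoA desaturase (NCBI Gene 6319, chr10:100347233-100364826 in RefSeq GRCh38.p14, as for the other members), had 3080 reads in control cells, 738 after NBT, 6675 after trametinib and 674 after both drugs. Both libraries with NBT were low, the trametinib library was the highest, and the control library lay between them. The log2 ratio of SCD was -2.11 with NBT (95% interval from -2.23 to -1.99), which is 4.32-fold lower.

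FASN, the fatty acid synthase (2194, chr17:82078338-82098236), had 11279 reads in control cells, 5250 after NBT, 10684 after trametinib and 3785 after both drugs. Its order was the same as that of SCD except that the control library stood above the trametinib library. The log2 ratio of FASN with NBT was -1.15 (from -1.20 to -1.11), which is 2.22-fold lower.

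ACACA and ACLY did not reach the limit with NBT. ACACA (31, chr17:37084992-37406836) had 2414 reads in control cells, 1361 after NBT, 2922 after trametinib and 1344 after both drugs, and its log2 ratio with NBT was -0.88 (from -0.97 to -0.78). ACLY (47, chr17:41866917-41930545) had 4342, 2940, 4831 and 2633 reads in the same order of libraries, with a log2 ratio of -0.61 (from -0.68 to -0.54). ACLY shares 156 exonic bases with the antisense gene AC125257.2 in GENCODE v29, and reads from these bases cannot be told apart without strand. Both intervals lay below 0, and both genes had the order of libraries seen for SCD. At a limit of 1.5-fold, ACACA and ACLY would be called lower and FADS2 higher, and 5 of the 9 genes in all, where 6.87% of all genes tested were.

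ACSS2, which supplies acetyl-CoA from acetate rather than from citrate (55902, chr20:34874989-34927959), had 729 reads in control cells, 800 after NBT, 749 after trametinib and 842 after both drugs. These 4 values lay close together, and the interval of its log2 ratio with NBT (0.08, from -0.06 to 0.23) included 0. The ratio of the ACLY level to the ACSS2 level in TPM was 4.00 in the control library and 2.47 in the NBT library. Over the 9 genes the median log2 ratio with NBT was -0.38, beside -0.01 over all genes tested, and 6 intervals lay below 0, 2 above it and 1 included it. When cultures were assumed to vary with a coefficient of variation of 0.2 (negative binomial test), SCD was called and FASN was not.

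**Figure D2:**
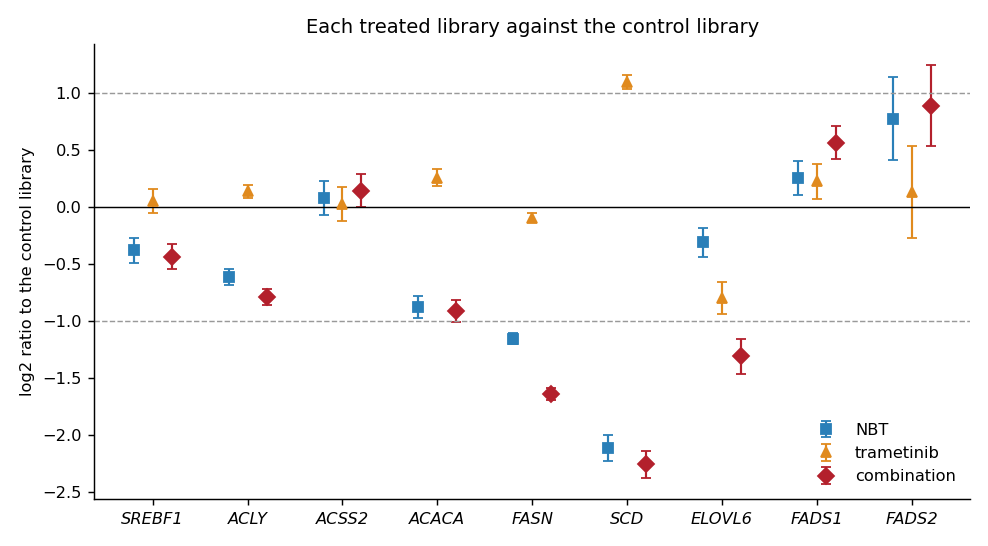
Log2 ratio of each treated library to the control library (vertical) for the 9 genes, with 95% counting intervals as bars and dashed lines at the limit of 1 in size. With NBT and with the combination SCD lies below -2, with trametinib it lies at 1.10, and FADS1 and FADS2 lie above 0 in every treated library, the FADS2 bar for trametinib crossing 0.

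The trametinib library was then compared with the control library to see the effect of blocking MEK alone. SCD rose from 61.45 to 129.66 TPM, with a log2 ratio of 1.10 (from 1.04 to 1.16). The ratio was 1.03 with TMM factors and 1.04 with median-of-ratios size factors, both just above the limit of 1. SCD was the 1 member called, where 5.96% of 16197 genes tested were called, 3.82% as higher and 2.15% as lower. With the assumed variation of 0.2 between cultures, 0 members were called in this comparison. At a limit of 1.5-fold 2 members, SCD and ELOVL6, were called, where 12.2% of all genes were.

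ELOVL6, the elongase that acts on palmitate (79071, chr4:110045846-110199202), had 1132 reads in control cells, 947 after NBT, 660 after trametinib and 478 after both drugs. The control library was thus the highest and the combination library the lowest. Its log2 ratio was -0.79 with trametinib (from -0.93 to -0.65) and -0.31 with NBT (from -0.43 to -0.18), both short of the limit of 1. ELOVL6 and FASN were the 2 members whose trametinib interval lay below 0. The ratio of the SCD level to the ELOVL6 level in TPM was 3.38 in control cells, 0.966 after NBT, 12.5 after trametinib and 1.75 after both drugs.

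The other members stayed short of the limit with trametinib. The log2 ratio was 0.26 for ACACA (from 0.18 to 0.34), 0.14 for ACLY (from 0.08 to 0.20), 0.23 for FADS1 (from 0.08 to 0.38) and -0.09 for FASN (from -0.13 to -0.05). The intervals of SREBF1, ACSS2 and FADS2 included 0. The median of the 9 genes was 0.13, beside 0.08 over all genes tested.

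In the combination library against the control library, SCD, FASN and ELOVL6 fell. Their log2 ratios were -2.25 (from -2.38 to -2.13), -1.64 (from -1.69 to -1.59) and -1.31 (from -1.46 to -1.15). These 3 of the 9 genes were called, where 8.42% of 16229 genes tested were called, 4.73% as higher and 3.69% as lower. ACACA stood at -0.91 (from -1.01 to -0.81) and ACLY at -0.78 (from -0.86 to -0.71). The median of the 9 genes was -0.78, beside 0.05 over all genes tested. ELOVL6 was not called under the negative binomial test. At a limit of 1.5-fold 6 of the 9 genes were called, where 18.8% of all genes were. Of these, FADS2 was higher (0.89) and the others were lower.

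To ask what each drug added to the other, the combination library was compared with each single-drug library. Against the trametinib library, SCD fell 10.2-fold, with a log2 ratio of -3.36 (from -3.47 to -3.24). FASN fell too, at -1.55 (from -1.60 to -1.49), as did ACACA, at -1.17 (from -1.26 to -1.08). These 3 genes were called, where 6.11% of 16343 genes tested were called, 2.56% as higher and 3.55% as lower. ACLY stood just short of the limit at -0.93 (from -0.99 to -0.86). ACACA was not called under the negative binomial test. At a limit of 1.5-fold 5 members were called, where 14.5% of all genes were. Of these, FADS2 was higher (0.76) and the others were lower.

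Against the NBT library, 0 of the 9 genes were called, where 4.36% of 16250 genes tested were, 2.38% as higher and 1.99% as lower. ELOVL6, at -0.999 (from -1.16 to -0.84), lay just inside the limit of 1 and was called with TMM factors (-1.03) and with median-of-ratios size factors (-1.02). SCD stood at -0.14 (from -0.30 to 0.01), an interval that included 0, although trametinib alone had raised it. FASN stood at -0.49 (from -0.55 to -0.42). At a limit of 1.5-fold 1 member, ELOVL6, was called, where 9.21% of all genes were.

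The combination value was set against the sum of the single-drug log2 ratios. For SCD the sum was -1.01 and the combination -2.25, a departure of -1.25 (from -1.41 to -1.08). SCD was the 1 of 9 members with a departure of at least 1 in size, where 2.33% of 11367 genes with at least 50 reads in a library had one. The departure was -0.39 for FASN (from -0.46 to -0.32), -0.31 for ACLY (from -0.41 to -0.22) and -0.29 for ACACA (from -0.43 to -0.16). The intervals of the other 5 genes included 0. The lowest 4 departures thus belonged to SCD, FASN, ACLY and ACACA. The plot of each drug without and with the other shows the same values as distances from the diagonal.

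**Figure D3:**
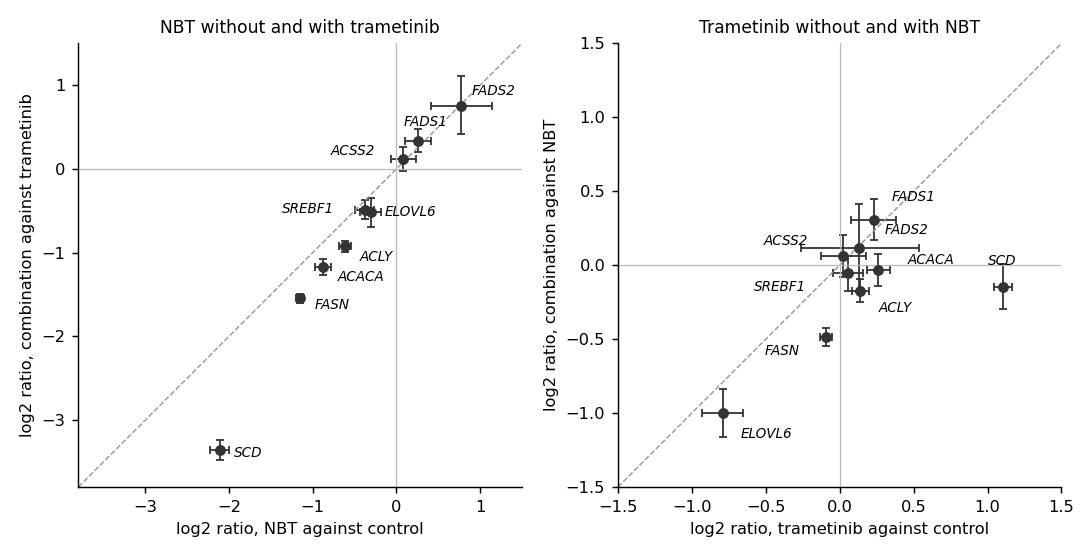
Left, log2 ratio of NBT against control (horizontal) and of the combination against trametinib (vertical). Right, trametinib against control (horizontal) and the combination against NBT (vertical). Points are the 9 genes, bars are 95% counting intervals and the dashed diagonal marks equal values. On the left SCD lies below the diagonal at -2.11 and -3.36, and on the right it lies at 1.10 and -0.14.

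Sequences upstream of SREBF1, ACLY, ACACA and SCD are shown because these genes had fewer reads in both libraries with NBT than in both without it, as had FASN, for which no window was matched. They come from RefSeq (GRCh38.p14), whose windows run from 250 bases before to 50 bases after each listed start and matched 8 of the 9 genes in 13 windows. Printed is, for the first start listed for each gene, the part before it that holds no exon of GENCODE v29, 5′ to 3′ on the gene's strand, with CCAAT or its reverse complement ATTGG in capitals. CCAAT boxes are bound by NF-Y, a factor known to act beside SREBPs.
SREBF1, chr17:17837003-17837236, minus strand: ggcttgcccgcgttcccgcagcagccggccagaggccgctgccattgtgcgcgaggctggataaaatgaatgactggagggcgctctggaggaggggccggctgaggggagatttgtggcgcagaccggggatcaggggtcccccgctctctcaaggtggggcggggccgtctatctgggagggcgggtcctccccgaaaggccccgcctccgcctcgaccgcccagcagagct
ACLY, chr17:41919023-41919272, minus strand: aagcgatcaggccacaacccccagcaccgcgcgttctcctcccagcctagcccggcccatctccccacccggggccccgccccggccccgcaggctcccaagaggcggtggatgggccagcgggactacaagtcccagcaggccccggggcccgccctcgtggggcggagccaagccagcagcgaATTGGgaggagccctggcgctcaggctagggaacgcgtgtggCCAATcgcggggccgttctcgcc
ACACA, chr17:37406950-37407086, minus strand: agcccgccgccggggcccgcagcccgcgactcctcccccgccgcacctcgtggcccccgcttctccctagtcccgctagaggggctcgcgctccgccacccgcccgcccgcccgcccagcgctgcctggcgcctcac
SCD, chr10:100346983-100347123, plus strand: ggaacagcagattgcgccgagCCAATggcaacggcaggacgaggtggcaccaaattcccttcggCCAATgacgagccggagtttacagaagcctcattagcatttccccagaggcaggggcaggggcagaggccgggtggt
The stretches of ACLY and SCD held 2 CCAAT matches each, and those of SREBF1 and ACACA held 0. The ACLY stretch reaches its listed start and lies within the RefSeq span of the gene, and the SCD stretch ends 109 bases before the listed start. Of the other ACACA windows, both at starts inside the gene, 1 held 1 match and the other held 2. Over the full windows of 300 bases, read on both strands, CCAAT was found for 5 of the 8 genes (ACACA, ACLY, ACSS2, FADS2 and SCD) and in 34.6% of all 35116 windows. GGGCGG, the core of the GC box, was found for 8 of the 8 genes and in 45.0% of windows. TCACNCCAC, the letters of a sterol regulatory element with 1 base left free, was found for 0 of the 8 genes and in 1.13% of windows. Genes with several windows had more chances of a match, and these matches describe letters and not bound sites.

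SREBF1 (NCBI Gene 6720, chr17:17811334-17836986) had 1487 reads in control cells, 1185 after NBT, 1559 after trametinib and 1152 after both drugs. The 2 libraries with NBT were lower than the 2 without it, and within each pair the intervals of the log2 ratio, 0.05 for trametinib against control (from -0.05 to 0.16) and -0.05 for the combination against NBT (from -0.17 to 0.06), included 0. Its log2 ratio was -0.38 with NBT (from -0.49 to -0.27) and -0.43 with the combination (from -0.54 to -0.32). No comparison called SREBF1. Its reads were divided among 6 RefSeq transcripts. The transcript XM_024450893.1 took 41.6% of the gene's TPM in control cells, 49.0% after NBT, 42.3% after trametinib and 55.3% after both drugs. NM_001321096.3 was assigned 118.26 reads in control cells, 43.94 after NBT, 254.08 after trametinib and 0 after both drugs. Its trametinib value was the highest and its combination value the lowest, but transcripts of a gene share sequence, so the division rests on the counting program. GENCODE v29 places 556 exonic bases of SREBF1 opposite RAI1 on the other strand, and strand use in counting was not stated.

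Genes that control SREBP processing were examined as an additional list of 9 genes. INSIG1, which retains the SCAP-SREBP complex and is itself an SREBP target, had 1025 reads in control cells, 295 after NBT, 1951 after trametinib and 396 after both drugs. As for SCD, both libraries with NBT were low and the trametinib library was the highest. INSIG1 fell with NBT (log2 ratio -1.85), with the combination (-1.43) and in the combination against trametinib (-2.35). SREBF2, which encodes the SREBP of the cholesterol pathway, had 2511, 1369, 3711 and 1771 reads in the same order and fell in the combination against trametinib (-1.12, from -1.20 to -1.03). Of all genes tested, between 2.61% (NBT against control) and 8.42% (combination against control) were called per comparison. The other 7 genes of the list were not called in any comparison. In the combination against control their log2 ratios were 0.74 for INSIG2, -0.41 for SCAP, 0.26 for the protease gene MBTPS1, 0.14 for MBTPS2, 0.10 for NR1H2 and 0.27 for NR1H3, both of which encode LXR receptors. MLXIPL, which encodes the carbohydrate-responsive factor ChREBP, had 9 to 16 reads.

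FADS1 (3992, chr11:61799627-61817003) and FADS2 (9415, chr11:61816203-61867354) encode the delta-5 and delta-6 desaturases and had more reads in each treated library than in the control library. FADS1 had 649 reads in control cells, 803 after NBT, 768 after trametinib and 1004 after both drugs. The combination library was the highest and the control library the lowest, with a log2 ratio of 0.57 between them (from 0.42 to 0.71). FADS2 had 102, 181, 113 and 198 reads in the same order, so that the libraries with NBT stood above those without. Its log2 ratio was 0.77 with NBT (from 0.42 to 1.14) and 0.89 with the combination (from 0.54 to 1.25), and its fewer reads gave wider intervals. Neither gene was called in any of the 5 comparisons.

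In RefSeq the spans of FADS1 and FADS2 overlap by 801 bases (chr11:61816203-61817003), and in GENCODE v29 they share 490 exonic bases on opposite strands. Without strand, reads from these bases cannot be told apart, so the FADS1 and FADS2 values are uncertain. On their own strands FADS2 also shares 49 exonic bases with FEN1, and FADS1 shares 80 with MIR1908. Strand would not separate reads from those bases. The transcript NM_004265.4 of FADS2, which starts beyond the overlap in GENCODE v29, had an estimated 0 reads in 3 libraries and 27.86 with the combination. The other FADS2 reads were assigned to NM_001281501.1 and NM_001281502.1. FADS3, a further gene of this cluster, rose with trametinib (log2 ratio 1.47, from 1.39 to 1.56) and with the combination (1.60, from 1.52 to 1.69). It stood at 83.07 TPM in the control and 95.2 TPM with NBT, against 226.69 TPM with trametinib and 245.82 TPM with the combination.

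The transcript table adds detail for the other members. SCD has 1 transcript in it and whole read numbers in all libraries, so nothing was divided. FASN reads were split between NM_004104.5, with 91.8% of the gene's TPM in control cells, 92.7% after NBT, 93.1% after trametinib and 81.0% after both drugs, and 1 other transcript. ELOVL6 reads were split among 4 transcripts. NM_024090.3 held 57.3% of the gene's TPM in control cells, 44.0% after NBT, 26.5% after trametinib and 54.3% after both drugs. NM_001130721.2 held 32.6%, 51.0%, 53.7% and 35.1% in the same order, so the combination library lay nearest to the control library for both. ACACA reads were spread over 12 transcripts, and XM_011524703.1 was assigned 480.76 reads in the control, 71.18 with trametinib and 0 in both libraries with NBT. Such shares carry the error of the division between transcripts that share sequence, which was not measured here.

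The wider pathway was read from further lists, and the plot of gene lists shows their members. In the list of precursor supply, SLC25A1, the mitochondrial citrate carrier, had 2255 reads in control cells, 1181 after NBT, 3381 after trametinib and 1309 after both drugs. It had the order of libraries seen for SCD except that the combination stood above NBT, and it fell in the combination against trametinib (-1.42, from -1.51 to -1.33). ME1, the cytosolic malic enzyme that supplies NADPH, rose with the combination (1.42, from 1.24 to 1.61), from 341 to 955 reads. With NBT alone ME1 had 583 reads and with trametinib alone 671. The trametinib ratio of ME1, 0.96 (from 0.77 to 1.16), lay just short of the limit. ACSS1, the mitochondrial acetyl-CoA synthetase, rose with trametinib (1.18, from 0.92 to 1.45). The other 6 of the 9 genes analysed were not called. Of all genes tested, 5.96% were called with trametinib, 8.42% in the combination against control and 6.11% in the combination against trametinib. The median log2 ratio of the list was -0.05 with NBT, 0.34 with trametinib and 0.50 in the combination against control. Over all genes tested it was -0.01, 0.08 and 0.05 in the same order. The NBT median of the list was the value of PRKAA2, named after its values were seen, with 4 reads in both libraries. SLC25A1 stood at -0.98 and ME1 at 0.72 with NBT.

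In the list of other elongation and desaturation genes (15 analysed), FADS3 was called as above, and ELOVL2, named after its values were seen, was called with trametinib from 0 reads in the control to 7. SCD5, a second stearoyl-CoA desaturase gene, was not called in any comparison and, also named outside the rule, had 728 reads in control cells, 590 after NBT, 871 after trametinib and 478 after both drugs. Of all genes tested, 5.96% were called with trametinib and 8.42% in the combination against control. Over the 15 genes the median log2 ratio stood at -0.14 for NBT, 0.07 for trametinib and -0.03 for the combination against control. Over all genes tested it stood at -0.01, 0.08 and 0.05 in the same order. Of 14 genes of fatty acid activation and glycerolipid synthesis, PNPLA3, named after its values were seen, was called in the combination against trametinib, with 9 and 26 reads. In that comparison 6.11% of all genes tested were called. The medians of the 14 genes were -0.16 with NBT and -0.14 in the combination against control, beside -0.01 and 0.05 over all genes. Of 15 genes of fatty acid oxidation, 0 were called in any comparison. Of all genes tested, between 2.61% (NBT against control) and 8.42% (combination against control) were called per comparison. With trametinib 14 of the 15 lay above 0, and their median log2 ratio was 0.31, beside 0.08 over all genes. The median was 0.01 with NBT, beside -0.01 over all genes. In the combination against trametinib 12 of the 15 lay below 0, with a median of -0.19 beside -0.05.

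Cholesterol synthesis and uptake, the branch that SREBP2 controls, gave 22 genes. With NBT 7 of them were called lower and 0 higher, beside 2 and 0 of the fatty acid genes. Of all genes tested, 1.01% were called lower and 1.6% higher. The median log2 ratio of the list was -0.60, beside -0.01 over all genes. With trametinib 5 were called higher and 0 lower, where 3.82% of all genes were called higher and 2.15% lower. The median was 0.63, beside 0.13 for the fatty acid genes and 0.08 over all genes. In the combination against trametinib 14 were called lower and 0 higher, where 3.55% of all genes were called lower and 2.56% higher. The median was -1.27, beside -0.51 for the fatty acid genes and -0.05 over all genes. HMGCS1, which makes HMG-CoA, had 1435 reads in control cells, 676 after NBT, 3263 after trametinib and 950 after both drugs. It fell with NBT (-1.14) and rose with trametinib (1.17), and LSS, the lanosterol synthase, did likewise (-1.09 and 1.04). TM7SF2, a sterol reductase gene, rose with trametinib (2.29), and MVK, the mevalonate kinase, rose as well (1.05). In the combination against control 2 of the 22 genes were called lower and 0 higher, beside 3 and 0 of the fatty acid genes. Of all genes, 3.69% were called lower and 4.73% higher. The median was -0.54, beside -0.78 for the fatty acid genes and 0.05 over all genes. In the combination against NBT 1 was called higher, TM7SF2 (1.35), and 1 lower, where 2.38% of all genes were called higher and 1.99% lower. The median was 0.08, beside -0.05 for the fatty acid genes and 0.03 over all genes.

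**Figure D4:**
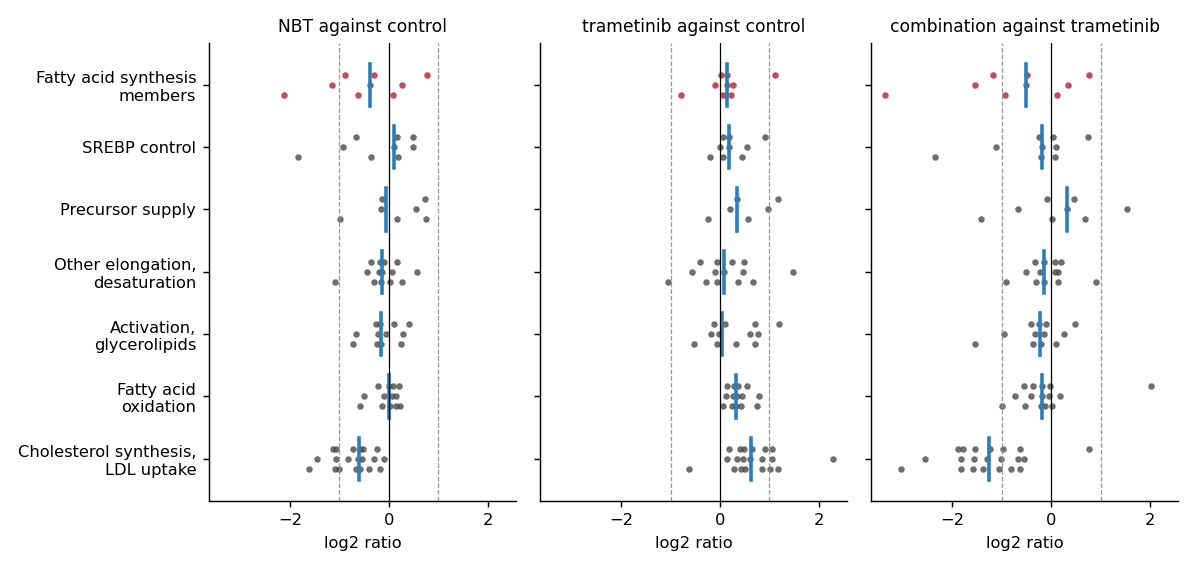
Log2 ratios of the 9 fatty acid synthesis genes (red) and of 6 further lists (grey) in NBT against control, trametinib against control and the combination against trametinib. Points are genes with at least 10 reads in 1 of the 2 libraries, blue bars are medians over all genes of a list with a read, and dashed lines mark the limit of 1 in size. The blue bar of the cholesterol list lies at -0.60, 0.63 and -1.27, and that of the fatty acid genes at -0.38, 0.13 and -0.51.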

How the data were processed

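The authors sequenced RNA of 4 libraries on the BGISEQ-500 platform. The submitters' processing notes name Bowtie2 2.2.5, RSEM 1.2.8 and hg38 without their roles, and the annotation is not given in the sources used here. The deposited tables hold estimated counts per gene and per RefSeq transcript, TPM values and FPKM values, the last of which were not used. Estimated counts were rounded and scaled to library sums, and log2 ratios were computed with 0.5 reads added. The study's methods name FPKM and the PossionDis test without a formula, and only their limits were taken over. The rounded counts of 2 libraries were tested with a two-sided exact binomial test that doubles the smaller tail. Adjustment (Benjamini-Hochberg) ran over the genes having 1 or more reads in either library, with limits of 0.05 and of 1 for the log2 ratio. The steps were tested on simulated data drawn with counting error only. Those data held no variation between cultures, so they cannot show how the calls fare under it. Other scaling, added reads, TPM in place of counts, summed transcript counts, a count minimum of 10, other limits and an assumed variation between cultures were tried as alternatives. Intervals cover counting error only, and they treat reads as independent although PCR copies are not independent molecules. Named were all 9 members, the SREBP control genes, DUSP6, and at most 4 called genes with at least 100 reads per list and comparison, of which some are not reported here. Members, lists and rules were chosen with earlier results of these data known. Tests ran in Python 3.11.15 with numpy 2.4.6, scipy 1.17.1, statsmodels 0.14.6 and pandas 2.3.3, figures in matplotlib 3.10.9, and the alternative scaling factors in edgeR 4.0.16 and DESeq2 1.42.0 (R 4.3.3).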

Additional observations from a re-analysis of the deposited data

Results flagged for a closer look

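The ACLY ratios for trametinib without and with NBT lay on opposite sides of 0. The log2 ratio was 0.14 (from 0.08 to 0.20) in trametinib against control, with 4831 and 4342 reads, beside a median of 0.08 over all genes, and 0.07 with TMM factors and 0.08 with median-of-ratios size factors. It was -0.17 (from -0.25 to -0.10) in the combination against NBT, with 2633 and 2940 reads. The difference of both ratios is the departure from additivity, -0.31 (from -0.41 to -0.22), an interval that excludes 0 but covers counting error only. With 1 library per condition, this difference was not tested against the variation between cultures, and both values are far from the limit of 1.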

How the results depend on the processing

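The median log2 ratio of the 9 genes kept its sign under TMM factors, median-of-ratios size factors, TPM with a pseudocount of 0.1, 5 added reads and transcript counts summed per gene, lying between -0.44 and -0.37 for NBT, 0.06 and 0.13 for trametinib, and -0.82 and -0.78 for the combination against control. The departure of SCD from additivity stayed between -1.25 and -1.19. With a negative binomial test and an assumed coefficient of variation of 0.2, which allows for more variation, fewer genes were called. The members called were 1 with NBT, 0 with trametinib, 2 with the combination, 2 in the combination against trametinib and 0 against NBT. The genes called overall were 69, 365, 547, 302 and 204 in that order, of 15888, 16197, 16229, 16343 and 16250 tested. The main counts in that order were 414, 966, 1366, 998 and 709. With a limit of 1.5-fold, which admits smaller changes, the members called in either direction were 5, 2, 6, 5 and 1. The genes called were 1092, 1974, 3053, 2375 and 1496. With TMM factors and with median-of-ratios size factors 1 member, ELOVL6, was called in the combination against NBT. At this depth FADS2, with 102 to 198 reads, had the widest intervals of the 9 genes. No paired analysis was possible because each condition has 1 library.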

Other observations

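The genes whose log2 ratios against the control lay closest to the median profile of the 9 members (-0.38 for NBT, 0.13 for trametinib and -0.78 for the combination) were NT5DC2, ATP5MC1, MRI1, ESCO2 and CYB5RL. Their Euclidean distances over these 3 ratios ran from 0.0153 for NT5DC2 to 0.0747 for CYB5RL, among 10365 genes with a mean of at least 100 reads. The 3 ratios share the control library. Each median was taken separately and is the value of a different member (SREBF1, FADS2 and ACLY in that order), so no member has this profile.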
